A study of Mus musculus with 6 samples.

Results

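The comparison described here set invariant natural killer T (iNKT) cells of the liver against iNKT cells of the lymph nodes. iNKT cells are T cells with a nearly fixed T-cell receptor that recognises lipids presented by CD1d. The members were all cell barcodes of the 2 liver and 2 lymph node libraries with 300 to 4000 detected genes and at most 15% of unique molecular identifiers (UMIs, each standing for 1 captured RNA molecule) from mitochondrial genes. They numbered 11148 of the 16532 cells of the series, with 2801 and 2861 cells in the liver libraries and 2638 and 2848 cells in the lymph node libraries. The remaining 5384 cells came from 2 spleen libraries, which entered the fit to share the estimate of the spread.

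All groups were wild-type C57BL/6 mice, 5 weeks old and untreated as far as the labels say. Cells that bound antibodies to CD8 or B220 had been removed before cells that stained for TCR-β and for a CD1d tetramer were sorted, so that CD8 and B cell genes were selected against. Organ was the only stated difference between the groups, but the organs also differed in RNA of the sex chromosomes. Xist RNA gave 10404 and 8692 UMIs in liver and 0 UMIs in either lymph node library, whereas 5 genes of the Y chromosome gave 0 UMIs in either liver library and 1365 and 1582 UMIs in lymph node. Liver and lymph node cells therefore came from different mice that differed in these transcripts, and organ cannot be told apart from them or from any other difference between these mice. Genes of the X and Y chromosomes were left out of every count below. The number of mice per library is not given in the labels, so p-values measure the spread between 2 libraries per organ.

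iNKT cells comprise a type 1 subset that depends on T-bet and carries receptors of natural killer (NK) cells, a type 2 subset that makes interleukin-4, and a type 17 subset that makes interleukin-17. Most liver iNKT cells are known to be type 1 cells that stay in the sinusoids, whereas lymph nodes are known to hold many type 17 cells. A sum over all cells of an organ thus reflects the mix of subsets as well as the RNA in each cell. In such sums, fewer cells of a type and less RNA per cell cannot be told apart.

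The libraries held 10870838 and 9011285 UMIs from liver and 5126226 and 4758138 UMIs from lymph node. The median cell held 3592 and 2880 UMIs in liver and 1730.5 and 1470 in lymph node, and the mitochondrial share was 2.79% and 2.85% against 4.65% and 5.26%. Between 6 and 13 barcode sequences were shared by any pair of these 4 libraries. Markers of T and NKT cells summed to 3856 and 4326 CPM (UMI counts scaled to the same total in every library) in liver and 4913 and 4973 in lymph node, and CD8 T cell markers were at 1.66 to 4.60 in the 4 libraries. Hepatocyte markers were at 13.7 to 19.9 CPM in the 4 libraries, with 5 of 17 such genes at 0 in all of them. B cell markers were at 46.3 and 84.0 in liver and 64.2 and 59.9 in lymph node, and myeloid markers at 72.6 and 117 in liver and 26.1 and 124 in lymph node. Erythroid markers were at 361 and 582 in liver and at 0 in both lymph node libraries, and endothelial and stromal markers at 0.828 and 0.555 against 7.22 and 12.2, and the part of these cells in the results was not tested.

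Markers of the iNKT subsets differed between the organs. The iNKT1 markers summed to 7170 and 7207 CPM in liver and 1807 and 1837 in lymph node. Those of iNKT2 cells summed to 607 and 608 against 1224 and 1320, and those of iNKT17 cells to 159 and 200 against 857 and 968. Cells with at least 1 UMI of 8 iNKT17 markers (the 10 fixed markers without Tmem176a and Tmem176b) made up 5.03% and 4.82% of liver cells and 39.6% and 41.4% of lymph node cells. Each gene list below was therefore also read from sums without these cells (141 and 138 liver cells and 1044 and 1180 lymph node cells were left out). This alternative was chosen after seeing the data.

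Of 9903 autosomal genes tested, 3718 (37.5%) were called at an adjusted p below 0.05. Genes higher in liver numbered 1796 (18.1%) and genes higher in lymph node 1922 (19.4%), and 568 and 707 of them differed at least 2-fold. The median log2 fold change over all autosomal genes, liver over lymph node, was 0.01. Every log2 fold change below is given in that direction. A gene given with its values alone was called unless the text says that it was not. Without the cells that carried any of the 8 markers, 2879 of 9728 autosomal genes (29.6%) were called. Levels of genes are given in CPM of the scaled library totals without ribosomal protein, ribosomal RNA and haemoglobin genes, first the 2 liver and then the 2 lymph node libraries. With more than 1 gene in 3 called, a gene list is described below by its count of called members and its median beside these values over all genes.

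**Figure D1:**
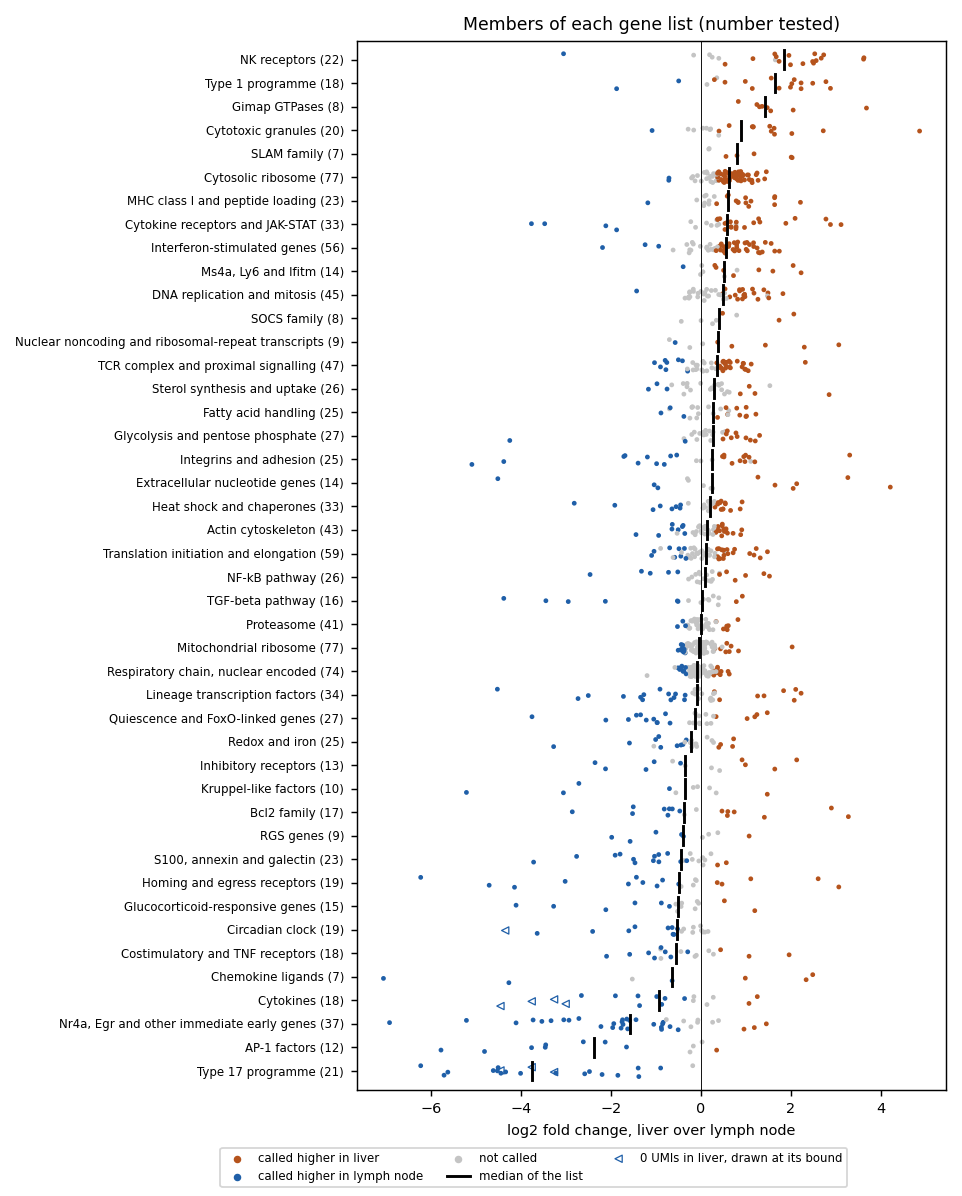
Log2 fold change of liver over lymph node (x axis) for the tested members of each gene list (rows, ordered by median), each point being 1 gene. Orange and blue points were called higher in liver or lymph node, grey points were not called, black bars are list medians, and open triangles mark genes with 0 UMIs in both liver libraries, drawn at their bound. NK receptor genes lie mostly to the right (median 1.85) and AP-1 factors mostly to the left (median -2.37).

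In the main comparison, NK receptor genes were the list with the highest median of those examined. Over the 19 alternatives their median ran from 1.47 to 2.09, while that of the type 1 programme reached 3.19 and that of the GIMAP genes 2.48. NK receptor genes encode lectin-like receptors and their signalling adaptors, which NK cells and type 1 iNKT cells use to sense class I molecules and stress ligands. Of 31 listed genes, 22 were tested, 16 were higher in liver and 1 was higher in lymph node, with a median log2 fold change of 1.85. The largest fold among those with at least 10 CPM was that of Klre1 (ENSMUSG00000050241, chromosome 6, 129577905 to 129585827, GRCm38), a receptor chain that pairs with Klri proteins, at 131 and 160.2 CPM in liver and 11.7 and 11.8 CPM in lymph node. Both liver libraries lay far above both lymph node libraries, with a log2 fold change of 3.63 (SE 0.17, adjusted p 2.66e-18). Klrd1, which encodes CD94, was at 386 and 461 CPM in liver and 129 and 124 CPM in lymph node (log2 fold change 1.74, SE 0.12, adjusted p 1.7e-13). The genes for its partner chains were higher in liver as well, Klrc1 (NKG2A) at 294 and 329 against 45.3 and 51.9 CPM and Klrc2 (NKG2C) at 143 and 135 against 27.9 and 20.9 CPM. The activating receptor gene Klrk1 (NKG2D) differed less, at 506 and 504 against 211 and 241 CPM, or 2.24-fold. Klrb1c, which encodes NK1.1, the surface marker of mature iNKT cells in C57BL/6 mice, was at 353 and 383 against 99.2 and 85.1 CPM (log2 fold change 2.00, SE 0.12, adjusted p 4.73e-15).

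The 17 tested Klr genes lie between positions 122270596 and 130386874 of chromosome 6, and 11 of them were higher in liver. Among the Ly49 genes, Klra7 was at 15.2 and 26.8 CPM in liver and 1.35 and 6.04 CPM in lymph node (adjusted p 0.00365), whereas Klra3 was at 20.5 and 27.5 against 24.4 and 28.8 CPM and Klra1 at 74.9 and 89.6 against 45.5 and 78.8 CPM, with overlapping libraries in both cases and no call (adjusted p 0.526 and 0.122). Klra9, at 18.5 and 29.4 against 2.17 and 12.9 CPM, was not called either (adjusted p 0.174). Leaving out a lymph node library changed the results of Klra7, Klra9 and Klra1. Klra7, with a log2 fold change of 2.49 in all libraries, was at 1.78 without the first and 3.92 without the second. Klra9, with a log2 fold change of 1.66 in all libraries, was called higher in liver at 0.88 without the first (adjusted p 0.0315) and at 3.44 without the second (adjusted p 3.31e-06). Klra1, at 0.40 in all libraries, was at 0.06 without the first and was called at 0.85 without the second (adjusted p 0.000879). Klra3 was called higher in lymph node without the cells with iNKT17 markers (adjusted p 0.0426). Klra genes are near-identical copies, as are Klrc1 and Klrc2, so how UMIs were divided among them is uncertain. Klrb1a was the one member higher in lymph node, a low gene at 0.3999 and 0.807 CPM in liver and 4.88 and 5.22 CPM in lymph node, and was chosen for mention after its values were seen. Without the cells with iNKT17 markers, 18 members were higher in liver and 2 in lymph node, but several folds were smaller. The log2 fold change then went from 2.68 to 1.99 for Klrc1, from 2.51 to 1.88 for Klrc2 and from 1.74 to 1.15 for Klrd1. That of Klra1 changed sign, from 0.40 to -0.20, with no call in either case.

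Of 20 tested genes of cytotoxic granules, 12 were higher in liver, and 1 was higher in lymph node (median 0.89). Of 25 listed genes, 3 were below the filter on low counts and 2 lie off the autosomes. Gzma, which encodes granzyme A, was at 48.8 and 63.6 CPM in liver and 10.6 and 6.32 CPM in lymph node (log2 fold change 2.73, SE 0.21, adjusted p 3.93e-12), and Gzmb, for granzyme B, at 152 and 209 against 5.42 and 6.86 CPM. Nkg7, a membrane protein of cytotoxic granules, was at 2161 and 2521 against 558 and 591 CPM, or 4.07-fold, with no overlap between the organs. Fasl, the ligand of the death receptor Fas, was at 90.8 and 91.2 against 33.6 and 27.7 CPM (log2 fold change 1.57, SE 0.14, adjusted p 8.86e-11), and Serpinb9, an inhibitor of granzyme B, at 67.05 and 75.2 against 23.8 and 21.7 CPM. Prf1, which encodes the pore protein perforin, was low in all 4 libraries, at 4.93 and 3.55 against 1.08 and 1.65 CPM. It was called in all cells (adjusted p 0.00772) but not without the cells with iNKT17 markers (adjusted p 0.267). Its call was also lost without the first liver library (adjusted p 0.0868) or the first lymph node library (adjusted p 0.0963). Ctsc, for the protease that activates granzymes, went the other way, at 63.98 and 76.7 CPM in liver and 135 and 162 CPM in lymph node (log2 fold change -1.08, SE 0.13, adjusted p 4.35e-08), and Srgn, for the granule proteoglycan, was not called (adjusted p 0.173) except higher in liver without the first liver library (adjusted p 0.0399).

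**Figure D2:**
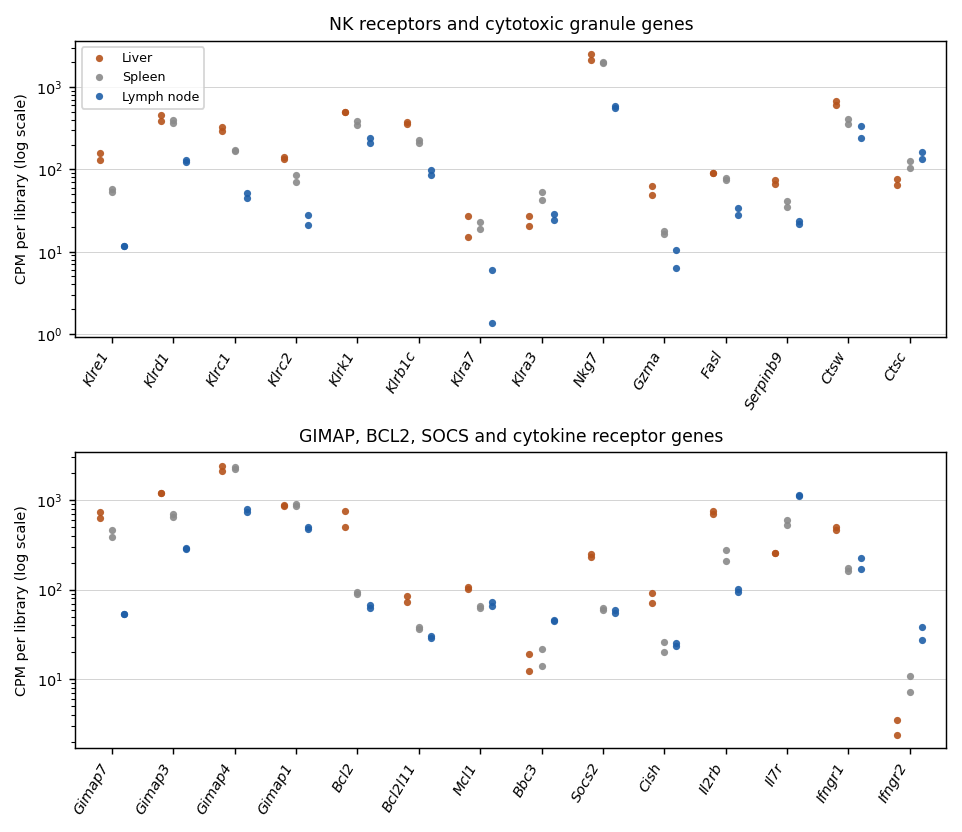
CPM per library (y axis, log scale) of NK receptor and granule genes (upper panel) and of GIMAP, BCL2, SOCS and cytokine receptor genes (lower panel), with 1 point per library. Klre1 sat at 131 and 160 CPM in liver and near 11.7 CPM in lymph node, while Ctsc, Bbc3, Il7r and Ifngr2 were higher in lymph node.

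The type 1 programme shares several genes with the lists above. Of its 18 genes, 14 were higher in liver and 2 were higher in lymph node (median 1.66). Tbx21, which encodes the lineage factor T-bet, was at 111 and 134 CPM in liver and 29.8 and 28.01 CPM in lymph node (log2 fold change 2.08, SE 0.15, adjusted p 2.4e-13). Il2rb, the receptor chain shared by interleukin-2 and interleukin-15, was at 696 and 751 against 94.03 and 102 CPM, or 7.39-fold. Il12rb2, a chain of the interleukin-12 receptor, was at 42.4 and 46.3 against 7.86 and 4.94 CPM, and the chemokine gene Ccl5 at 4648 and 3893 against 775 and 745 CPM. Each of these genes had both liver libraries above both lymph node libraries. Ifng, the gene of the cytokine that defines the programme, was at 99.2 and 157 CPM in liver and 125 and 106 CPM in lymph node (log2 fold change 0.14, SE 0.21, adjusted p 0.649), with overlapping libraries and no call. Without the first liver library it was called higher in liver (adjusted p 0.0268). Il18r1, for the interleukin-18 receptor, was higher in lymph node, at 111 and 135 against 417 and 484 CPM (log2 fold change -1.87, SE 0.12, adjusted p 2.42e-14), and Cxcr6, the chemokine receptor of liver-patrolling iNKT cells, was also higher in lymph node, at 1207 and 1655 against 1835 and 2185 CPM (log2 fold change -0.49, SE 0.14, adjusted p 0.00585). Without the cells with iNKT17 markers, 13 members were higher in liver, and Il18r1 and Cxcr6 were again higher in lymph node. The call of Cxcr6 was lost without the first liver library (adjusted p 0.158) or the second lymph node library (adjusted p 0.139).

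The type 17 programme was the list with the lowest median in the main comparison. Over the 19 alternatives its median ran from -4.39 to -1.19, and that of the AP-1 factors from -2.53 to -2.15. Of 21 tested members, 20 were higher in lymph node, none in liver and 1, the nuclear receptor gene Rora, was not called. The median was -4.34, or -3.76 with the 3 members that had no UMI in liver set at their bound. The interleukin-23 receptor gene Il23r was at 0.533 and 0.969 CPM in liver and 29.8 and 49.4 CPM in lymph node (log2 fold change -5.71, SE 0.35, adjusted p 3.4e-14), and Il17re, for a receptor of interleukin-17C, at 2.93 and 2.58 against 55.6 and 66.2 CPM. The cytokine genes Il17a, Il17f and Il22 had 0 UMIs in both liver libraries. Against a floor of 3 UMIs per library they were at least 13.5-fold, 9.59-fold and 21.9-fold higher in lymph node (counting error alone).

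All 8 markers used to leave out cells are members of this list, so that they were at 0 in both organs without these cells by construction. Of the other 13 tested members, 3 then fell below the filter on low counts, and of the remaining 10, 7 were higher in lymph node and 1 in liver. Sdc1, which encodes syndecan-1, was at 2.399 and 1.61 CPM in liver and 97.01 and 107 CPM in lymph node. Its log2 fold change was -5.62 with these cells and -5.71 (adjusted p 3.0e-11) without them. The mean level of Sdc1 fell without them in both organs, from 102 to 25.9 CPM in lymph node and from 2.01 to 0.442 CPM in liver. Even in all cells the liver value rested on 18 and 10 UMIs. Tmem176a and Tmem176b, which encode paired membrane proteins, were at 87.04 and 117 and at 113 and 138 CPM in liver, and at 267 and 261 and at 234 and 232 CPM in lymph node. The log2 fold change of Tmem176b turned from -0.89 (SE 0.12, adjusted p 2.08e-07) to 0.60 (adjusted p 0.0015), and that of Tmem176a from -1.38 to 0.07 (adjusted p 0.769). In the same step, the interleukin-4 gene Il4 moved from -0.16 (adjusted p 0.288) to -0.55 (adjusted p 0.00122), and the transcription factor gene Lef1 from -0.13 (adjusted p 0.417) to -0.58 (adjusted p 0.000495).

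**Figure D3:**
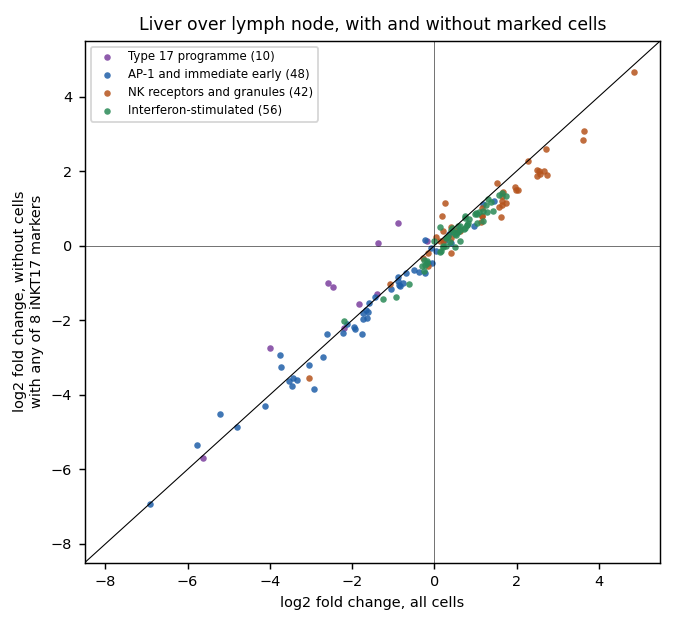
Log2 fold change of liver over lymph node in all cells (x axis) against the same value without cells that held at least 1 UMI of 8 iNKT17 markers (y axis), 1 point per gene for 4 groups of gene lists, with the diagonal drawn. Klrc1 lies at 2.68 in all cells and 1.99 without the marked cells, Fosb at -3.76 and -2.92, and among the 10 type 17 genes still tested Tmem176a and Tmem176b crossed 0.

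Among lineage transcription factors, 8 of 34 were higher in liver and 14 in lymph node. Zbtb16, which encodes PLZF, the factor that directs the innate programme of all iNKT cells, was at 95.2 and 78.2 CPM in liver and 95.7 and 83.8 CPM in lymph node, and was not called (log2 fold change -0.05, SE 0.13, adjusted p 0.797). Gata3, the type 2 factor, was slightly higher in lymph node, at 173 and 175 against 232 and 216 CPM (log2 fold change -0.36, SE 0.12, adjusted p 0.0136). Id3, an inhibitor of E proteins, was at 16.1 and 17.8 against 134 and 90.6 CPM (log2 fold change -2.73, SE 0.17, adjusted p 2.29e-13, or -3.38 with the cells with iNKT17 markers left out), and Tcf7, which encodes TCF-1, at 73.7 and 52.8 against 160.2 and 161 CPM (log2 fold change -1.34, SE 0.13, adjusted p 1.25e-09). Tox, at 41.5 and 31.97 against 84.5 and 92.8 CPM, was also higher in lymph node. Irf8, an interferon regulatory factor, was higher in liver, at 66.2 and 90.1 against 18.2 and 17.8 CPM (log2 fold change 2.11, SE 0.17, adjusted p 6.38e-12). Eomes, the T-bet relative of conventional memory and NK cells, held 1 UMI over the 4 libraries and was below the filter. Without the first lymph node library, 5 lineage factors were higher in liver and Gata3 was not called (adjusted p 0.129), nor was Gata3 called without the cells with iNKT17 markers (adjusted p 0.056) or without the first liver library (adjusted p 0.0586).

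Of 18 cytokine genes tested, 2 were higher in liver and 12 in lymph node (median -0.92). The liver pair were Tnfsf14, which encodes LIGHT, at 199 and 194 against 99.7 and 64.5 CPM (log2 fold change 1.26, SE 0.14, adjusted p 1.41e-07), and Csf2, which encodes GM-CSF, at 19.3 and 29.9 against 10.8 and 12.4 CPM. Il13, a type 2 cytokine, was at 4.13 and 5.65 CPM in liver and 23.3 and 12.9 CPM in lymph node (log2 fold change -1.90, SE 0.29, adjusted p 3.75e-06). Lta, for lymphotoxin alpha, was at 12.8 and 16.5 against 43.1 and 33.5 CPM, and Tnfsf11, for RANKL, at 16.3 and 15.7 against 43.4 and 38.7 CPM. Il4 and Tnf were not called in all cells. The lymph node count was 10 of 15 tested without the cells with iNKT17 markers and 7 of 16 without the second lymph node library. It was 5 of 11, with a median of -0.19, under a stricter filter on low counts, and 5 of 12 in the cells with 2 or more UMIs of the 10 iNKT17 markers alone. Areg, which encodes the growth factor amphiregulin, had 0 UMIs in both liver libraries, and lymph node exceeded liver at least 8.02-fold. Among chemokine genes, Cxcl10, an interferon-induced ligand of CXCR3, was at 48.4 and 61.5 CPM in liver and 10.8 and 10.7 CPM in lymph node (log2 fold change 2.34, SE 0.20, adjusted p 4.31e-11). Ccl1, the ligand of CCR8, was at 51.5 and 32.95 CPM in lymph node and rested on 4 and 0 UMIs in the liver libraries. The gene of its receptor, Ccr8, was at 1.07 and 0.484 CPM in liver and 24.7 and 18.4 CPM in lymph node, so that both partners were higher in the lymph node libraries. All liver UMIs of Ccl1 came from the first library, and its log2 fold change was -7.06, or -6.23 without the second. Without the first there was no liver UMI to set a fold against. Ccr8 had a log2 fold change of -4.70, or -5.38 without the first liver library.

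Receptors that guide migration split by organ. Of 19 tested genes of 26 listed, 5 were higher in liver and 10 in lymph node. Ccr9, a chemokine receptor gene, was a liver member, at 97.3 and 118 against 16.8 and 18.4 CPM (log2 fold change 2.61, SE 0.16, adjusted p 4.48e-15). In lymph node the leading genes beside Ccr6 and Ccr8 were Ccr10, a receptor for skin chemokines, at 4.93 and 7.11 against 119 and 91.2 CPM (log2 fold change -4.14, and -5.20 without the cells with iNKT17 markers), and Gpr183, a receptor for oxysterols, at 16.7 and 15.3 against 135 and 125 CPM (log2 fold change -3.01, SE 0.15, adjusted p 9.61e-18). Ccr7, whose product guides entry into lymph nodes, at 9.597 and 9.69 against 33.6 and 25.3 CPM, and the sphingosine phosphate receptor gene S1pr1, of exit from them, at 24.5 and 26.5 against 49.6 and 50.3 CPM, were also higher in lymph node. For each of these genes both lymph node libraries lay above both liver libraries. The other sphingosine phosphate receptors differed in direction from S1pr1, with S1pr4 at 167 and 142 against 115 and 108 CPM and S1pr2 at 16.9 and 16.1 against 8.13 and 7.14 CPM. Klf2, a factor that induces S1pr1, was at 157 and 136 against 149 and 180.4 CPM and was not called in all cells (log2 fold change -0.17, SE 0.12, adjusted p 0.294), but was called higher in lymph node without the cells with iNKT17 markers (-0.39, adjusted p 0.0373). Ccr2 and Cxcr4 were not called, but without the first lymph node library Cxcr4 was called higher in lymph node (adjusted p 0.0375). Without the first liver library, 3 of these genes were higher in liver, and S1pr4 was not called (adjusted p 0.0551).

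Integrin and adhesion genes were called in both directions, 11 higher in liver and 10 higher in lymph node of 25 tested. Itga1, the collagen-binding chain CD49a of tissue-resident lymphocytes, was at 15.2 and 12.3 CPM in liver and 2.17 and 0.549 CPM in lymph node (log2 fold change 3.31, SE 0.41, adjusted p 7.03e-08, or 2.61 with the cells with iNKT17 markers left out). It rested on 8 and 2 UMIs in lymph node, and the log2 fold change of Itga1 was 4.59 without the first lymph node library and 2.66 without the second. Itgae, the chain CD103 that binds epithelial E-cadherin, was the reverse, at 3.47 and 5.17 against 97.6 and 80.5 CPM (log2 fold change -4.38, SE 0.21, adjusted p 5.24e-18). Their partner chains moved the same way as they did, Itgb1 at 245 and 238 against 86.4 and 124 CPM and Itgb7 at 313 and 282 against 435 and 427 CPM. Both chains of LFA-1, known to hold iNKT cells in the liver, were higher in liver, Itgal at 299 and 299 against 159 and 149 CPM (log2 fold change 0.96, SE 0.11, adjusted p 2.69e-08) and Itgb2 at 469 and 484 against 263 and 257 CPM (log2 fold change 0.88, SE 0.12, adjusted p 3.54e-07). The gene of its ligand, Icam1, was at 91.8 and 115 against 55.6 and 48.1 CPM. Cd226, an activating adhesion receptor, was also higher in liver, and the tetraspanin gene Cd9 and the neuropilin gene Nrp1, a mark of recent thymic emigrants among iNKT cells, were higher in lymph node, Nrp1 at 17.3 and 15.5 against 36.3 and 50.3 CPM.

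The GIMAP genes encode GTPases, some of which keep resting lymphocytes alive. All 8 lie between positions 48647234 and 48770851 of chromosome 6, and all 8 were higher in liver in all cells and in each of the 19 alternatives, with a median of 1.42 (0.99 to 2.48 over the alternatives). The sizes were not alike. Gimap7 (ENSMUSG00000043931) was at 632 and 741 CPM in liver and 53.4 and 53.3 CPM in lymph node (log2 fold change 3.69, SE 0.14, adjusted p 1.65e-20). Gimap3 was at 1189 and 1209 against 289 and 287 CPM, or 4.16-fold, and Gimap1 at 884 and 864 against 502 and 478 CPM, or 1.78-fold. Members share similar sequence, so small differences between them are uncertain.

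Survival genes of the BCL2 family were divided. Of 17 tested, 7 were higher in liver and 8 in lymph node. The anti-apoptotic gene Bcl2 was at 755 and 506 CPM in liver, 67.2 and 62.3 CPM in lymph node and 88.4 and 94.96 CPM in spleen, so that the liver libraries stood apart from the other 4, and also differed from each other (log2 fold change over lymph node 3.28, SE 0.16, adjusted p 1.62e-12). Mcl1 and Bcl2l1, which also oppose cell death, were higher in liver too, by 1.52-fold and 1.51-fold. The death-promoting gene Bcl2l11, which encodes BIM, rose in the same direction, at 85.3 and 73.1 against 30.4 and 29.1 CPM (log2 fold change 1.42, SE 0.15, adjusted p 1.85e-09). The p53 target Bbc3, which encodes PUMA, was higher in lymph node, at 19.2 and 12.3 against 44.4 and 45.6 CPM (log2 fold change -1.50, SE 0.20, adjusted p 8.66e-07), and so was Pmaip1, which encodes NOXA, at 0.267 and 2.099 against 6.23 and 10.2 CPM. For Pmaip1 the log2 fold change was -2.86, or -1.94 without the first liver library and -4.79 without the second. Bax was not called. The anti-apoptotic Bcl2a1 copies were higher in lymph node, Bcl2a1b at 337 and 407 against 605 and 602 CPM, with the division of UMIs among the copies uncertain.

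Receptor chains of cytokines and their JAK-STAT partners were more often higher in liver, with 21 of 33 higher in liver and 4 in lymph node (median 0.58). Beside Il2rb, the interleukin-4 receptor gene Il4ra was at 55.05 and 58.6 against 16.3 and 14.3 CPM and the interleukin-10 receptor gene Il10ra at 17.99 and 13.1 against 2.17 and 1.37 CPM (log2 fold change 3.12, and 2.30 without the cells with iNKT17 markers). Stat4, the factor downstream of interleukin-12, was at 89.04 and 98.2 against 21.4 and 22.2 CPM (log2 fold change 2.10, SE 0.15, adjusted p 3.17e-13). The 4 genes higher in lymph node included Il7r, the receptor of the survival cytokine interleukin-7, at 258 and 259 CPM in liver and 1103 and 1129 CPM in lymph node (log2 fold change -2.11, SE 0.12, adjusted p 9.76e-16), and Il6ra, at 3.87 and 4.198 against 56.6 and 53.3 CPM. The chains of the interferon gamma receptor moved in opposite directions. Ifngr1 was at 463 and 496 CPM in liver and 168 and 225 CPM in lymph node (log2 fold change 1.29, SE 0.13, adjusted p 5.42e-10), and Ifngr2 at 2.399 and 3.55 CPM in liver and 27.4 and 38.2 CPM in lymph node (log2 fold change -3.47, SE 0.27, adjusted p 2.68e-12). Without the cells with iNKT17 markers these values were 1.54 and -3.52.

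Of the 8 SOCS genes, feedback inhibitors of cytokine signalling, 3 were higher in liver and none in lymph node. Socs2 was at 251 and 229.9 CPM in liver, 59.6 and 54.9 CPM in lymph node and 58.9 and 62.8 CPM in spleen (log2 fold change over lymph node 2.07, SE 0.12, adjusted p 2.68e-15). Cish was at 91.3 and 70.9 against 23.3 and 25.3 CPM (log2 fold change 1.74, SE 0.16, adjusted p 2.06e-10) and Socs1 at 135 and 119.8 against 89.2 and 93.1 CPM, while Socs3 was not called (adjusted p 0.982).

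Immediate early genes are transcribed within minutes of receptor or stress signals, without new protein synthesis, and include the FOS and JUN subunits of the AP-1 factor. Many carry cyclic AMP response elements (CRE), bound by CREB proteins, or CArG boxes, bound by serum response factor. The promoters of 3 members that held such a match, which the same 150 bases of Fos and Junb did not, are shown from RefSeq (GRCm38.p6). Each is 150 bases up to an annotated start, read in the direction of the gene, with the match in capitals. They lie at chr17:26508473-26508622 (minus strand, Dusp1), chr7:45526269-45526418 (minus strand, Ppp1r15a) and chr10:67537719-67537868 (plus strand, Egr2). Egr2 has further annotated starts, and the 150 bases at chr10:67535349-67535498, before another of them, held no CArG box.
Dusp1: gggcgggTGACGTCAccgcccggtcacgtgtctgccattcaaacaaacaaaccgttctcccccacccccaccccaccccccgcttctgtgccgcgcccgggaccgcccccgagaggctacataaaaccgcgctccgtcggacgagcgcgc
Ppp1r15a: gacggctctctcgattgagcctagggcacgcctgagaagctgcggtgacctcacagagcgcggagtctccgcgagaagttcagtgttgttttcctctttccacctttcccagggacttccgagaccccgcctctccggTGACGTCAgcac
Egr2: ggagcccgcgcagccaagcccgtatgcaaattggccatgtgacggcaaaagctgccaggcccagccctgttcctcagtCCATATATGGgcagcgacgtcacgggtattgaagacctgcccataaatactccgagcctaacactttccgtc

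The match was TGACGTCA in the first pair of promoters, and a CArG box in Egr2. In windows from 250 bases before to 50 after each start, searched on both strands, the CRE letters were found in 5 of the 42 AP-1 and immediate early genes that matched RefSeq by symbol (11.9%), in 4.09% of all tested autosomal genes and in 2.03% of all genes of the table. A CArG box was found in 3 of the 42 (7.14%), in 1.41% of tested genes and in 1.81% of all genes. A match describes the letters in this window, and does not show that a factor binds there. The lack of a match, as for Fos and Junb, covers only these exact letters in the bases searched.

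Of 12 AP-1 factor genes tested, 8 were higher in lymph node and 1 in liver, with a median of -2.37. Junb was at 379.6 and 396 CPM in liver and 4096 and 4366 CPM in lymph node (log2 fold change -3.45, SE 0.14, adjusted p 1.02e-19), and Fos (ENSMUSG00000021250, chromosome 12, 85473890 to 85477273) at 12.3 and 8.24 against 560.1 and 580.2 CPM. Jun was at 82.9 and 84.5 against 329 and 401 CPM and Jund at 482 and 650.1 against 1642 and 1912 CPM, or 4.36-fold and 3.14-fold higher in lymph node. None of these 4 genes had overlapping libraries. Fosb, at 7.198 and 4.04 against 72.9 and 83.2 CPM, and Fosl2, at 7.73 and 11.8 against 63.4 and 54.6 CPM, went the same way. The log2 fold change of Fosb went from -3.76 to -2.92 without the cells with iNKT17 markers. Batf, a partner of JUN that T cells induce later, was the member higher in liver, at 122 and 123 against 98.4 and 93.4 CPM (log2 fold change 0.35, SE 0.12, adjusted p 0.0178). It was not called without the cells with iNKT17 markers (adjusted p 0.0547), where 8 members were again higher in lymph node. Its call was also lost without the first liver library (adjusted p 0.0534) and without either lymph node library (adjusted p 0.059 and 0.141). Atf4 was not called.

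The list of other immediate early genes had the same direction, with 27 of 37 tested higher in lymph node, 3 higher in liver and a median of -1.58. Dusp1, a phosphatase of MAP kinases, was at 70.6 and 51.7 CPM in liver and 999 and 1117 CPM in lymph node (log2 fold change -4.11, SE 0.15, adjusted p 1.79e-18). Ppp1r15a, which encodes the stress phosphatase subunit GADD34, was at 45.3 and 61.04 against 599.95 and 626 CPM (log2 fold change -3.53, SE 0.24, adjusted p 1.04e-05). Klf4, a Kruppel-like factor of quiescent T cells (ENSMUSG00000003032, chromosome 4, 55527143 to 55532466), was at 1.999 and 1.94 against 73.7 and 74.1 CPM, or 37.02-fold higher in lymph node. Its log2 fold change went from -5.21 to -4.52 without the cells with iNKT17 markers. The nuclear receptor gene Nr4a1, induced by T-cell receptor signals, was at 5.73 and 12.4 against 95.7 and 82.9 CPM (log2 fold change -3.33, SE 0.23, adjusted p 4.64e-09). Of the Egr genes, also known targets of that receptor, Egr1 was at 19.5 and 25.2 against 42.3 and 38.99 CPM (log2 fold change -0.87, SE 0.17, adjusted p 0.000119) and Egr2 at 1.73 and 5.17 against 14.4 and 11.3 CPM (log2 fold change -1.93, SE 0.36, adjusted p 8.6e-05). The value of Egr2 was -1.30 without the first liver library and -2.86 without the second, and that of Nr4a1 was -3.95 without the second. Gadd45b, a stress sensor, was at 32.3 and 40.05 against 159 and 121 CPM and the mRNA-decay factor gene Zfp36 at 36.7 and 47.6 against 155 and 125 CPM. Of all these genes only Dusp6, Spred2 and Ier3 were higher in liver, Dusp6, a phosphatase specific to ERK kinases, at 101 and 100.1 against 37.7 and 35.4 CPM (log2 fold change 1.46, SE 0.14, adjusted p 1.4e-10). Myc, Klf6 and Dusp2 were not called in all cells. Without the first liver library Dusp2 was called higher in lymph node (adjusted p 0.00263), as it was without the cells with iNKT17 markers (adjusted p 0.0138). Ier3, at 8.13 and 8.397 against 5.42 and 3.02 CPM, lost its call without the cells with iNKT17 markers (adjusted p 0.288). It also lost its call without the first liver library (adjusted p 0.07), the second liver library (adjusted p 0.0649) or the second lymph node library (adjusted p 0.29).

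The spleen libraries lay nearer to liver than to lymph node for Fos (26.2 and 22.7 CPM), Dusp1 (139.8 and 113 CPM) and Klf4 (3.37 and 2.58 CPM). They were also like liver in Xist (5401 and 5858 UMIs) and in the 5 Y-linked genes (0 UMIs in either), so that this order cannot be told apart from the difference between the mice. The mitochondrial share was 4.27% and 4.87% in spleen, 2.79% and 2.85% in liver and 4.65% and 5.26% in lymph node. The heat shock gene Hspa1a, another inducible gene, was at 30.7 and 37.9 CPM in liver, 46.1 and 47.2 CPM in lymph node and 0.519 and 0.287 CPM in spleen (adjusted p 0.027 for liver against lymph node). The call of Hspa1a was lost without the cells with iNKT17 markers (adjusted p 0.107), without the first liver library (adjusted p 0.276) and without either lymph node library (adjusted p 0.101 and 0.147). The part of the mitochondrial share or of tissue handling in these folds was not tested.

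**Figure D4:**
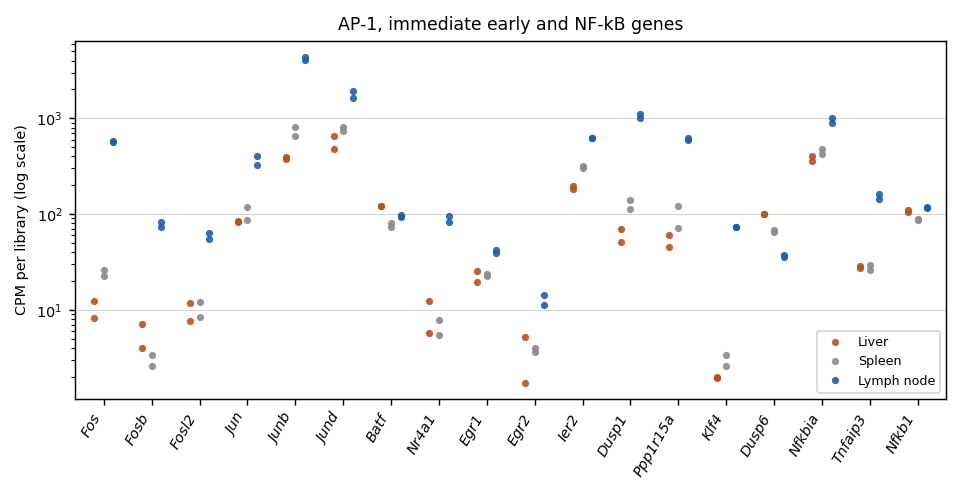
CPM per library (y axis, log scale) of AP-1, immediate early and NF-kB genes, 1 point per library for liver, spleen and lymph node. Both lymph node libraries lie above both liver libraries for Fos, Junb, Dusp1 and Klf4, and Dusp6 and Batf show the opposite order.

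In the NF-kB pathway, Nfkbia, which encodes IκBα, was at 356 and 404 CPM in liver and 1008 and 888 CPM in lymph node (log2 fold change -1.32, SE 0.12, adjusted p 1.3e-10), and Tnfaip3, which encodes A20, at 27.1 and 28.7 against 164 and 143 CPM (log2 fold change -2.46, SE 0.14, adjusted p 4.02e-16). Of the subunit genes, Nfkb1 (105 and 111 against 119 and 115 CPM), Nfkb2, Rel and Relb were not called, with adjusted p of 0.471, 0.233, 0.18 and 0.166, and Rela was called higher in liver, at 59.7 and 59.7 against 40.1 and 40.1 CPM. Without the cells with iNKT17 markers Rel was called higher in lymph node (adjusted p 0.022) and Rela was not called (adjusted p 0.0596). Also higher in liver were Bcl3, an IκB relative, at 28.7 and 28.9 against 10.03 and 9.89 CPM, and Traf1, an adaptor of TNF receptors, at 118 and 104 against 47.2 and 36.5 CPM. In all, 6 of 26 members were higher in liver and 5 in lymph node, near the 37.5% of all genes.

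Genes of the T-cell receptor pathway were called in both directions. The CD3 chains were alike or higher in lymph node, with Cd3d at 1803 and 2029 CPM in liver and 1968 and 1731 CPM in lymph node (not called), Cd3g at 1675 and 1939.7 against 2527 and 2573 CPM (log2 fold change -0.50, SE 0.12, adjusted p 0.00186) and Cd3e at 593 and 762 against 1125 and 1159 CPM (log2 fold change -0.75, SE 0.13, adjusted p 1.17e-05). Several genes of proximal signalling were higher in liver. Lck, the kinase that starts the signal, was at 866 and 776 against 613 and 610.4 CPM and Plcg1, for the phospholipase, at 59.05 and 46.99 against 26.8 and 21.97 CPM, while Zap70 and Lat were not called. Lck was not called without the cells with iNKT17 markers (adjusted p 0.108). The phosphatase-like regulators Ubash3a and Ubash3b moved apart, Ubash3a at 30.3 and 23.1 against 4.34 and 6.32 CPM (log2 fold change 2.33, SE 0.25, adjusted p 5.6e-09) and Ubash3b at 31.9 and 31.3 against 54.5 and 54.9 CPM (log2 fold change -0.79, SE 0.15, adjusted p 5.08e-05). Over the list, 24 of 47 were higher in liver and 8 in lymph node, and 19 and 10 without the cells with iNKT17 markers. Without the second liver library, and likewise without the second lymph node library, 5 members were higher in lymph node, and in the latter case Lck was not called (adjusted p 0.0526).

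Costimulatory receptors were higher in lymph node for 8 of 18 genes and in liver for 3 (median -0.55). Icos was at 302 and 305 CPM in liver and 863 and 954 CPM in lymph node (log2 fold change -1.58, SE 0.12, adjusted p 7.43e-13) and Cd28 at 366 and 379 against 737 and 781 CPM (log2 fold change -1.03, SE 0.11, adjusted p 7.84e-09), with both lymph node libraries above both liver libraries. Tnfrsf1a, for the first TNF receptor, was higher in liver, at 72.1 and 59.9 against 14.9 and 18.9 CPM. Among inhibitory receptors, Pdcd1, which encodes PD-1, was at 11.6 and 14.9 CPM in liver and 65.04 and 69.2 CPM in lymph node (log2 fold change -2.35, SE 0.18, adjusted p 9.34e-13, or -2.95 with the cells with iNKT17 markers left out). Lag3 and Cd200 were also higher in lymph node, Cd160 and the ectonucleotidase gene Entpd1 (CD39) were higher in liver, and Ctla4 was low and not called (4.67 and 4.68 against 3.79 and 4.12 CPM). The log2 fold change of Entpd1 went from 2.13 to 1.54 without the cells with iNKT17 markers. The call of Lag3 was lost without the first liver library (adjusted p 0.0898) or the second lymph node library (adjusted p 0.097). SLAM receptors, through which thymocytes select iNKT cells, were higher in liver for 5 of 7 tested genes of 11 listed and in lymph node for none. Slamf7 was at 98.1 and 139 against 31.4 and 27.2 CPM (log2 fold change 2.01, SE 0.16, adjusted p 3.79e-10) and Slamf6 at 104 and 93.2 against 44.7 and 42.01 CPM, while Cd84 was not called, except higher in liver without the cells with iNKT17 markers (adjusted p 0.0464).

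Interferon-stimulated genes are switched on through the element ISRE, bound by STAT and IRF complexes, and through the GAS element, also bound by STAT factors. The promoters of 4 members with such matches are shown, 150 bases up to a RefSeq start (GRCm38.p6), read in the direction of the gene. Matches to GAAANNGAAA (ISRE) or TTCNNNGAA (GAS) on either strand are in capitals. They lie at chr4:156200819-156200968 (minus strand, Isg15), chr19:34640739-34640888 (plus strand, Ifit1), chr3:142620513-142620662 (plus strand, Gbp2) and chr11:53769864-53770013 (plus strand, Irf1, the GAS match). Irf1 has another RefSeq start, and the 150 bases before it, at chr11:53770323-53770472, held no GAS match.
Isg15: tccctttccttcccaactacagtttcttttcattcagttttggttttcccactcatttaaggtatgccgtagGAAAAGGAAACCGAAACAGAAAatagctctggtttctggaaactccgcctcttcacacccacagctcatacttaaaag
Ifit1: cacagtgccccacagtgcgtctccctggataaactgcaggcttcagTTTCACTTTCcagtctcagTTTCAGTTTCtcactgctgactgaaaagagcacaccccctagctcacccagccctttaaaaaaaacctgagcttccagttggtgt
Gbp2: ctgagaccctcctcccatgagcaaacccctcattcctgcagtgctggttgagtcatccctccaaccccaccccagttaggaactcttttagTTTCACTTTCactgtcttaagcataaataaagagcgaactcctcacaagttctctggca
Irf1: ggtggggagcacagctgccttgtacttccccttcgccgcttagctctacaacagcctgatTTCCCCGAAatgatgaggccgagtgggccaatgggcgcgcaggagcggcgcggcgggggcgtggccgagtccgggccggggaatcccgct

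Of these genes Isg15, Gbp2 and Irf1 were higher in liver and Ifit1 was not called, so that ISRE letters stood before genes of either outcome. An ISRE match was found in 24 of 41 interferon-stimulated genes matched by symbol (58.5%), against 3.91% of tested autosomal genes and 3.99% of all genes of the table. It was found in 15 of 25 of those higher in liver (60%) and in 9 of the 16 that were not (56.2%). A GAS match was found in 12 of the 41 (29.3%), against 8.55% of tested and 9.55% of all genes. These shares describe the list and were not tested.

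Of 56 interferon-stimulated genes tested, 36 were higher in liver and 3 in lymph node (median 0.55). Irf1, a transcription factor induced strongly by interferon gamma (ENSMUSG00000018899, chromosome 11, 53770014 to 53778374), was at 198 and 215 CPM in liver and 92.9 and 67.0001 CPM in lymph node (log2 fold change 1.37, SE 0.13, adjusted p 1.27e-09). Of the guanylate-binding proteins, effectors of the same cytokine, higher in liver were Gbp4 at 166 and 181 against 71.8 and 73.6 CPM (log2 fold change 1.25, SE 0.12, adjusted p 4.12e-10, chosen for mention after its values were seen) and Gbp2 at 103 and 133 against 61.8 and 53.3 CPM (log2 fold change 1.03, SE 0.14, adjusted p 2.51e-07). Epsti1 was at 475 and 428 against 163 and 142 CPM and Parp14 at 83.7 and 88.01 against 29.3 and 25.5 CPM. Bst2 (tetherin, at 235 and 289 against 204 and 176 CPM) and Oas3 (an oligoadenylate synthetase, at 35.5 and 43.9 against 28.995 and 23.9 CPM), chosen for mention after their values were seen, were higher in liver too. Neither was called without the second liver library (adjusted p 0.0663 and 0.088) or the second lymph node library (adjusted p 0.098 and 0.13). Ifit1, Ifit3 and Irf7 were not called. Ifit1 was at 109 and 136 CPM in liver and 160.2 and 118 CPM in lymph node, with overlapping libraries (log2 fold change -0.19, SE 0.29, adjusted p 0.664), Ifit3 at 45.9 and 67.5 against 115 and 57.1 CPM and Irf7 at 109 and 105 against 99.2 and 95.8 CPM. Without the second lymph node library Ifit3 was called higher in lymph node (adjusted p 0.0343). Isg15, at 226 and 329.7 against 199.7 and 137 CPM, was called in all cells (adjusted p 0.0278) but not without the cells with iNKT17 markers (adjusted p 0.216). Oasl2, Cmpk2 and Ifit3b were higher in lymph node, Oasl2 at 7.46 and 8.07 against 37.4 and 33.2 CPM (log2 fold change -2.18, SE 0.21, adjusted p 3.6e-10). Without the first lymph node library, Cmpk2 (adjusted p 0.0528) and Ifit3b (adjusted p 0.117) were not called, nor was Ifit3b without the first liver library (adjusted p 0.07) or Isg15 without the second lymph node library (adjusted p 0.0723). Without the cells with iNKT17 markers, 26 genes were higher in liver and 4 in lymph node, and over the 19 alternatives the liver count ran from 26 to 38.

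Class I presentation genes were higher in liver for 14 of 23 and in lymph node for 1 (median 0.61). H2-K1, a classical class I chain, was at 3047 and 2991 CPM in liver and 1498 and 1382 CPM in lymph node (log2 fold change 1.07, SE 0.13, adjusted p 2.51e-08), whereas the other classical chain, H2-D1, was not called (3778 and 3614 against 3486 and 3477 CPM). The nonclassical gene H2-Q7 was at 986 and 909 against 233 and 174 CPM (log2 fold change 2.22, SE 0.14, adjusted p 2.22e-14), with the division of UMIs among H2-Q copies uncertain. Nlrc5, the class I transactivator, was at 39.3 and 42.6 against 12.7 and 13.5 CPM and the peptide transporter gene Tap1 at 196 and 192 against 101 and 92.3 CPM. Cd1d1, which encodes the lipid-presenting molecule that iNKT cells recognise, was the one member higher in lymph node, at 21.2 and 21.6 against 49.9 and 46.95 CPM (log2 fold change -1.18, SE 0.16, adjusted p 3.27e-07).

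The proteasome as a whole did not follow. Of 41 genes, 7 were higher in liver, 3 in lymph node and 31 were not called (median 0.01), a smaller called share than the 37.5% of all genes. Over the 19 alternatives the liver count ran from 5 to 9 and the lymph node count from 1 to 5. The genes of the interferon-inducible immunoproteasome were 5 of the 7 liver calls. Psmb9 was at 377 and 427 against 231 and 221 CPM (log2 fold change 0.83, SE 0.12, adjusted p 6.78e-07), Psmb8 at 1503 and 1503 against 1001 and 963 CPM (log2 fold change 0.61, SE 0.12, adjusted p 0.000106) and Psmb10 at 447 and 471 against 316 and 294 CPM (log2 fold change 0.59, SE 0.12, adjusted p 0.000121). The activator genes Psme1 and Psme2 were 1.49-fold and 1.27-fold higher. Without the second lymph node library neither was called (adjusted p 0.0522 for Psme1 and 0.143 for Psme2), and Psme2 was not called without the second liver library (adjusted p 0.18) or the first lymph node library (adjusted p 0.0841). Psme2 was also not called without the cells with iNKT17 markers (adjusted p 0.254). Psmb5, whose product holds the site that Psmb8 replaces, was higher in liver as well, at 299 and 349.6 against 221 and 215 CPM, while Psmb6 and Psmb7 were not called. Psme2, Psmb5, Psmb6 and Psmb7 were chosen for mention after their values were seen.

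**Figure D5:**
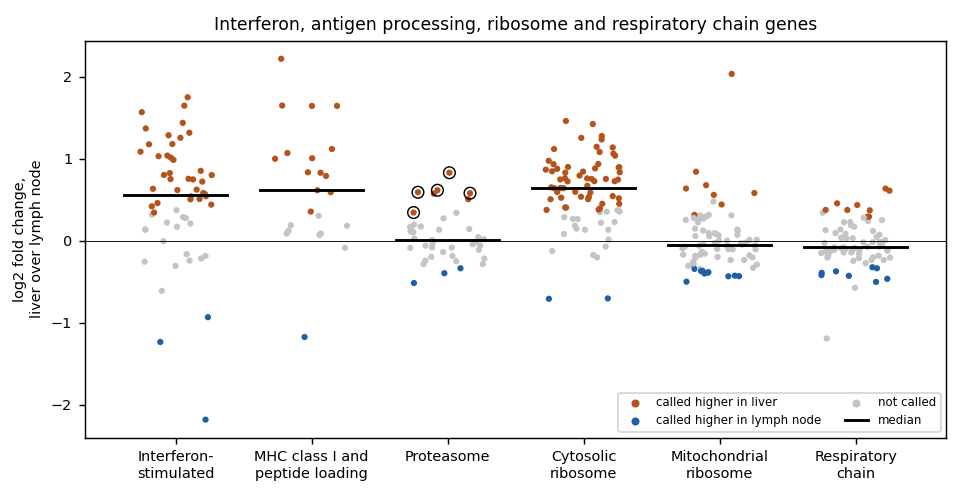
Log2 fold change of liver over lymph node (y axis) for the tested members of 6 gene lists, each point being 1 gene coloured by its call, with black bars at the median and rings around the immunoproteasome and activator genes Psmb8, Psmb9, Psmb10, Psme1 and Psme2. The cytosolic ribosome lies mostly above 0 (median 0.64), and the proteasome, mitochondrial ribosome and respiratory chain lie around 0.

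Genes of cytosolic ribosomal proteins, the most abundant mRNAs of these cells, were read from a fit that kept them, in which 18% of autosomal genes were higher in liver and 19.8% in lymph node. Of 77 tested, 56 were higher in liver and 2 in lymph node (median 0.64). Their sum was 325840 and 304079 CPM in liver, 249089 and 199766 CPM in lymph node, and 263250 and 261220 CPM in spleen. Both liver libraries stood above the others, and the lymph node libraries differed between themselves. Rps12 was at 2735 and 2185 CPM in liver and 1059.6 and 730.4 CPM in lymph node (log2 fold change 1.46, SE 0.16, adjusted p 4.06e-08) and the stalk protein gene Rplp0 at 5036 and 4823 against 3808 and 3010.1 CPM. Rpl35 (3605 and 3655 against 5985 and 5855 CPM) and Rpl22l1 (1017 and 1204 against 1773 and 1859.6 CPM) were higher in lymph node. The main elongation factor genes had the same direction, Eef1a1 at 8257 and 7022 against 3145 and 2318 CPM (log2 fold change 1.48, SE 0.16, adjusted p 3.54e-08) and Eef2 at 2189 and 1966 against 998 and 768 CPM (log2 fold change 1.23, SE 0.14, adjusted p 1.5e-08), whereas the cap-binding factor gene Eif4e and its inhibitor Eif4ebp1 were higher in lymph node. Of the 59 initiation and elongation factor genes, 19 were higher in liver and 8 in lymph node. Without the second lymph node library these counts were 10 and 5, and Eif4e was not called (adjusted p 0.0583), and without the first liver library 3 were higher in lymph node. The shares of UMIs from ribosomal protein and the other genes left out of the main comparison were 34.0% and 31.8% in liver and 27.0% and 23.1% in lymph node, and liver cells also had more UMIs per cell. The part of UMIs per cell in these folds was not tested.

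Genes of glucose use were higher in liver for 10 of 27 and in lymph node for 2 (median 0.27). Gapdh was at 1090.05 and 1136 CPM in liver and 579.6 and 456 CPM in lymph node (log2 fold change 1.10, SE 0.13, adjusted p 1.3e-08) and the glucose transporter gene Slc2a3 at 46.3 and 45.9 against 21.4 and 24.4 CPM. Hk2, the inducible hexokinase, was the reverse, at 3.73 and 4.68 CPM in liver and 82.6 and 76.6 CPM in lymph node (log2 fold change -4.25, SE 0.20, adjusted p 4.35e-18), and at -2.89 without the cells with iNKT17 markers. Eno1, Pkm, Ldha and Aldoa were not called, but Eno1 was called higher in liver under 7 of the 19 alternatives, among them that without the cells with iNKT17 markers (adjusted p 0.0319) and that without the first liver library (adjusted p 0.0427). In fatty acid handling, 9 of 25 were higher in liver, among them the fatty acid synthase gene Fasn at 22.8 and 22.1 against 12.7 and 9.61 CPM, and 3 in lymph node, among them Acadm, of medium-chain fatty acid oxidation, at 28.3 and 26.97 against 44.7 and 57.4 CPM. Over the 19 alternatives the liver count of this list ran from 4 to 9 and the lymph node count from 1 to 4. Of 26 sterol genes, 4 were higher in liver and 3 in lymph node, and Hmgcs1, which acts early in the pathway, was not called. Without the first liver library, 9 sterol genes were higher in liver, Hmgcs1 among them (adjusted p 0.033). Genes that sense or remove extracellular nucleotides were higher in liver for 6 of 14 and in lymph node for 3. P2rx7, an ATP-gated channel, was at 118 and 131 against 4.88 and 8.51 CPM, and Art2b, the enzyme that activates this channel from NAD, at 47.98 and 74.3 against 6.504 and 6.04 CPM (log2 fold change 3.27, SE 0.24, adjusted p 9.8e-11). Cd38, which consumes NAD, was at 56.8 and 57.97 against 13.3 and 14.3 CPM and Adora2a, an adenosine receptor, at 67.98 and 60.4 against 28.7 and 24.4 CPM.

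Cdkn1a, the p53-induced cell cycle inhibitor p21, was at 4.53 and 3.39 CPM in liver and 59.3 and 49.2 CPM in lymph node (log2 fold change -3.75, SE 0.26, adjusted p 1.99e-12), and Cdkn1b, p27, at 98.4 and 88.8 against 188 and 178 CPM (log2 fold change -0.97, SE 0.12, adjusted p 4.17e-08). Klf3 was higher in liver, at 176 and 167 against 66.1 and 56.8 CPM, and Foxo1 was not called. Over the quiescence list, 5 of 27 were higher in liver and 11 in lymph node. Without the first liver library, 3 of them were higher in liver. Of 19 clock genes, none was higher in liver and 10 were higher in lymph node (median -0.52). Ciart, a clock repressor, was at 4.798 and 4.84 against 65.8 and 54.6 CPM (log2 fold change -3.64, SE 0.21, adjusted p 8.73e-16), Nr1d1 (REV-ERBα) at 8.26 and 10.8 against 31.98 and 25.5 CPM and Per1 at 9.597 and 11.1 against 25.2 and 31.9 CPM, while the core activator gene Arntl (BMAL1) and the output gene Dbp were not called. Nr1d1 was not called without the cells with iNKT17 markers (adjusted p 0.065), and 5 clock genes were then higher in lymph node. Glucocorticoid-responsive genes were higher in lymph node for 6 of 15, 4 of which (Dusp1, Per1, Il7r and Errfi1) also stand in other lists, and in liver for 2. The known targets Fkbp5, Sgk1, Klf9 and Ddit4 were not called. Klf9 was called higher in lymph node without the first liver library (adjusted p 0.00306), and Ddit4 without the first lymph node library (adjusted p 0.00263). Fkbp5 was called higher in lymph node under 5 of the 19 alternatives. Txnip was higher in liver, at 284 and 209 against 103 and 111 CPM. Errfi1 lost its call without the cells with iNKT17 markers (adjusted p 0.0799), without either liver library (adjusted p 0.126 and 0.0643) or the second lymph node library (adjusted p 0.226).

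Genes of DNA replication and mitosis were higher in liver for 19 of 45 and in lymph node for 1 (median 0.48). The proliferation marker Mki67 was at 40.5 and 42.95 CPM in liver and 13.01 and 10.4 CPM in lymph node (log2 fold change 1.83, SE 0.24, adjusted p 2.16e-06), and the cyclin gene Ccna2 at 29.2 and 37.3 against 8.67 and 14.8 CPM. Ccna2 was not called without the cells with iNKT17 markers (adjusted p 0.111). Pcna and Stmn1 were not called, but Pcna was called higher in lymph node under 3 of the 19 alternatives, among them that without the second liver library (adjusted p 0.0244). Stmn1 was called higher in liver in the cells with 2 or more UMIs of the 10 iNKT17 markers alone (adjusted p 7.47e-05). The liver count of this list ranged from 9 to 29 over the alternatives, was 9 without the cells with iNKT17 markers and was 12 without the first lymph node library.

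Among structural and calcium-binding genes, Capg, an actin-capping protein, was at 60.5 and 87.4 CPM in liver and 956 and 981 CPM in lymph node (log2 fold change -3.72, SE 0.14, adjusted p 1.82e-18) and the galectin gene Lgals3 at 69.04 and 86.6 against 491 and 561 CPM (log2 fold change -2.76, SE 0.13, adjusted p 4.35e-18). S100a4 (155 and 149.5 against 589 and 468 CPM) and S100a6 (615 and 697 against 1875 and 1738 CPM) were also higher in lymph node, as were 13 of 23 genes of the S100, annexin and galectin list, while 2 were higher in liver. The counts without the cells with iNKT17 markers were 10 and 2, with log2 fold changes that went from -1.79 to -1.02 for S100a4 and from -2.76 to -2.12 for Lgals3. The actin genes moved apart, with Actb at 9957 and 12795 CPM in liver and 20386 and 23138 CPM in lymph node (log2 fold change -0.94, SE 0.14, adjusted p 3.5e-06) and Actg1 at 2727 and 2908 against 1686 and 1357 CPM (log2 fold change 0.89, SE 0.13, adjusted p 1.41e-06). Ly6c2, which encodes a Ly6C protein of activated lymphocytes, was at 1118 and 1289 against 276 and 236 CPM (log2 fold change 2.23, SE 0.13, adjusted p 6.55e-16, or 1.64 with the cells with iNKT17 markers left out), and Ly6a, for Sca-1, at 978 and 1338 against 523 and 423 CPM. Among chaperone genes of the endoplasmic reticulum, Hspa5 (BiP) at 315 and 468 against 629 and 590.1 CPM and Dnajb9 at 31.5 and 39.2 against 126 and 139 CPM (log2 fold change -1.91, SE 0.14, adjusted p 3.12e-13) were higher in lymph node and Calr at 543 and 646 against 304 and 244 CPM was higher in liver, while the cytosolic chaperone genes Hsp90ab1 and Hspa8 were higher in liver. Hspa8 was not called without the second lymph node library (adjusted p 0.0637). Of signal regulators, Rgs2 was at 65.7 and 62.5 against 288 and 218 CPM (log2 fold change -1.98, SE 0.13, adjusted p 7.59e-14), and the TGF-β pathway corepressors Skil and Tgif1 were at 25.2 and 34.1 against 124 and 132 CPM and at 8.66 and 13.1 against 84.3 and 81.6 CPM. In the redox list the ferritin light chain gene Ftl1 was at 1448 and 1507 CPM in liver and 2859.9 and 3059 CPM in lymph node (log2 fold change -1.002, SE 0.12, adjusted p 5.6e-08), whereas the heavy chain gene Fth1 was not called (2714 and 2573 against 2319 and 2021 CPM).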

How the data were processed

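RNA of sorted iNKT cells was measured with the 10x Genomics 3′ method, version 2 chemistry, in 2 libraries each of liver, lymph node and spleen. Per the study's methods, the authors aligned reads to mm10 and counted UMIs with Cell Ranger 3.1.0, and the deposited matrices hold raw UMI counts of 27998 genes. The molecule is labelled nuclear RNA. Annotation version and batches are not given in the sources used here. Positions were taken from GENCODE vM21 (GRCm38), which held 98.7% of the gene identifiers.

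Barcodes with 300 to 4000 genes and at most 15% mitochondrial UMIs were kept (35 barcodes of the 4 libraries failed), with no doublet removal in the main comparison. The kept UMIs were summed per library, to 4758138 to 10870838 in these libraries, and genes of cytosolic ribosomal proteins, ribosomal RNA and haemoglobin (110 genes) were left out of the sums. Liver was compared with lymph node by edgeR 4.0.16 (trimmed mean of M values, robust quasi-likelihood F test, Benjamini-Hochberg adjustment, R 4.3.3) over all 6 libraries with organ as the only term. Genes passed edgeR's filter on low counts, which left 10252, of which 9903 are autosomal. SE is the log2 fold change divided by the root of F. The script was tested on simulated counts.

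The members and gene lists were chosen with earlier results of these data known. Genes named in the text were drawn from these, not all of which are named: per list, up to 4 called members in each direction with at least 10 CPM in the higher organ, the 10 largest differences in each direction at 50 CPM or more, and anchor genes marked in the lists. Areg, Atf4, Bst2, Calr, Errfi1, Gbp4, Ier3, Il17f, Il22, Klrb1a, Oas3, Psmb5, Psmb6, Psmb7, Psme2, Rela and Srgn were named after their values were seen. Alternatives were other scaling factors, DESeq2 1.42.0, other filters on low counts and on cells, thinned totals, Scrublet scores, subsets by iNKT17 markers, a replicate block and leaving out each library. Promoters were matched to RefSeq by gene symbol, which found 7524 of the 9903 genes. Some members of the lists are counted but not reported by name here.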

Additional observations from a re-analysis of the deposited data

How the results depend on the processing

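Among autosomal genes, 3718 were called in the main comparison and 2478 by DESeq2, of which 1073 were higher in liver and 1405 in lymph node. With only cells that held at least 2 UMIs of 10 iNKT17 markers, 1192 genes were higher in liver and 1298 in lymph node. Leaving out each library in turn gave 2321 to 3373 called genes, with 1062 to 1626 higher in liver and 1259 to 1747 higher in lymph node, the fewest without the second lymph node library. Over the alternatives, genes higher in liver were 43.3% to 52.2% of the called genes. The replicate block, a fit with the replicate number as a term, gave 4022 calls (1945 and 2077), but samples with the same number were only weakly alike (correlations of deviations across genes of 0.0832, 0.0985 and 0.0752), so the numbers were not taken to pair the libraries. Of the autosomal genes named in the text, 197 were called. The 4 ribosomal genes among them were not run under the alternatives, and 32 of the other 193 lost the call in at least 1 of 19 alternatives, 30 of them with the direction kept in each such alternative. Under the block, Isg15 was not called (adjusted p 0.192). DESeq2 did not call 9 of them, Batf (adjusted p 0.0814), Errfi1 (adjusted p 0.153), Hspa1a (adjusted p 0.157), Ier3 (adjusted p 0.157), Il17a (adjusted p 0.245), Isg15 (adjusted p 0.0796), Lag3 (adjusted p 0.0526), Oas3 (adjusted p 0.0552) and Prf1 (adjusted p 0.0621). Thinned totals lost Errfi1 and Ier3, and leaving out shared barcodes lost Errfi1. Without cells with 2 or more UMIs of the 10 markers, 11 lost the call with the direction kept, Batf (adjusted p 0.0546), Errfi1 (adjusted p 0.232), Hspa1a (adjusted p 0.123), Ier3 (adjusted p 0.453), Isg15 (adjusted p 0.149), Lck (adjusted p 0.0946), Neat1 (adjusted p 0.0667), Oas3 (adjusted p 0.0516), Prf1 (adjusted p 0.145), Psme2 (adjusted p 0.245) and Tmem176a (adjusted p 0.0626). In these cells alone 10 did, Batf (adjusted p 0.179), Cd200 (adjusted p 0.0596), Cmpk2 (adjusted p 0.0553), Csf2 (adjusted p 0.557), Fasn (adjusted p 0.102), Gzma (adjusted p 0.562), Hspa1a (adjusted p 0.296), Ifit3b (adjusted p 0.798), Pdcd1 (adjusted p 0.0653) and Socs1 (adjusted p 0.231). Only Tmem176a and Tmem176b reversed among called genes. Without the cells that carried any of the 8 iNKT17 markers the log2 fold change was 0.073 for Tmem176a and 0.60 for Tmem176b. That of Tmem176b was 0.044 without cells with 2 or more UMIs of the 10 markers and 0.082 in these cells alone. Both genes are among the 10 markers, so choosing cells by those markers in part fixes the levels of these genes by construction. This also holds for the lost call of Tmem176a without cells with 2 or more UMIs of the 10 markers. Cells with 2 or more UMIs of the 10 markers numbered 372 and 408 in liver and 864 and 965 in lymph node. Only 141 and 138 liver cells held any of the 8 markers, against 1044 and 1180 lymph node cells. Many liver cells thus met the limit by Tmem176a and Tmem176b alone, and unlike cells may be compared between the organs. In the cells that met this limit alone, 10 named genes that were not called in all cells were called higher in liver. For 4 of these the sign turned, with log2 fold changes of 1.09 for Dusp2, 0.54 for Ifit1, 0.86 for Il4 and 0.99 for Lef1. The others were Fth1 (0.39), Ifng (1.56), Irf7 (0.75), Klra1 (1.45), Relb (0.84) and Stmn1 (0.87). Another 4 named genes not called in all cells were then called higher in lymph node, Ccr2 (adjusted p 0.00324), Fkbp5 (adjusted p 0.0246), Klf9 (adjusted p 0.0053) and Rora (adjusted p 0.0356). Of genes not called, the block called Eno1, Fkbp5, Fth1, Klf9, Klra1 and Pcna, and the fit with no filter on low counts called Eno1, Fth1 and Klra1. The cause of these changes was not tested.

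The comparison rests on 2 libraries per organ, and organ cannot be told apart from Xist and Y-linked RNA or from other differences between the mice. Lymph node libraries held at most 5126226 UMIs and liver libraries at least 9011285, so that genes of a few CPM rest on few UMIs in lymph node. Cells with 2 or more UMIs of the 10 iNKT17 markers were 13.3% and 14.3% of liver cells and 32.8% and 33.9% of lymph node cells, and 2.68% and 3.86% against 23.1% and 28.0% when each cell was thinned to 1000 UMIs. Cells without a detected marker can still be type 17 cells.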

Other observations

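Outside the fixed lists, the genes with the largest differences at 50 CPM or more included several whose products are not usually placed in an iNKT programme. Mmp9, which encodes a secreted gelatinase, was at 84.9 and 64.6 CPM in liver, 1.897 and 3.295 CPM in lymph node and 10.6 and 14.9 CPM in spleen (log2 fold change over lymph node 4.84, SE 0.26, adjusted p 6.56e-16). Plac8, a small cysteine-rich protein, was at 650.2 and 768 against 69.1 and 68.1 CPM, and Atp8a2, a phospholipid flippase, at 79.3 and 64.3 against 8.4004 and 4.12 CPM. The unnamed gene 1810011H11Rik was at 75.8 and 65.7 CPM in liver and 5.69 and 3.02 CPM in lymph node. Both liver libraries lay above both lymph node libraries for these 4 genes. The log2 fold change without the cells with iNKT17 markers was 4.15 for Mmp9, and it went from 3.37 to 2.75 for Plac8 and from 4.01 to 3.38 for 1810011H11Rik. That of Atp8a2 went from 3.51 to 4.12 without the first lymph node library. In the other direction, Fam83a was at 2.13 and 4.68 CPM in liver and 80.5 and 109.8 CPM in lymph node. Its log2 fold change was -4.84, or -5.45 without the second liver library, and -6.34 (adjusted p 1.36e-11) without the cells with iNKT17 markers. Without those cells the mean level of Fam83a fell in both organs, from 95.2 to 27.7 CPM in lymph node and from 3.41 to 0.314 CPM in liver. The last value rests on few UMIs. Gm17056 was at 1.47 and 0.969 against 43.4 and 78.5 CPM, and its log2 fold change was -5.59 in all cells and -5.84 (adjusted p 8.99e-13) without those cells.

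Mitochondrial genes encoded in the nucleus were close to balanced. Of 74 respiratory chain genes, 9 were higher in liver and 8 in lymph node (median -0.08), and of 77 genes of the mitochondrial ribosome 8 and 11 (median -0.05). Without the second lymph node library these counts were 2 and 3 for the respiratory chain and 3 and 0 for the mitochondrial ribosome, without the cells with iNKT17 markers 5 and 6 for the first list and 8 and 5 for the second, without the first lymph node library 4 genes of either list were higher in lymph node, and without the first liver library 2 and 1. Among antioxidant genes, Mt1, which encodes a metallothionein, was at 0.267 and 0.807 CPM in liver and 5.15 and 5.22 CPM in lymph node (log2 fold change -3.27, SE 0.57, adjusted p 2.62e-05), and Sod1 at 86.2 and 70.1 against 53.4 and 40.9 CPM. Mt1 rested on 2 and 5 UMIs in liver, and its log2 fold change was -2.63 without the first liver library and -4.14 without the second. Of 10 Kruppel-like factor genes, Klf3 was higher in liver and 4 were higher in lymph node, among them Klf10 at 14.7 and 19.5 against 105 and 117 CPM. Malat1, a noncoding RNA kept in nuclei, was at 37446 and 35531 CPM in liver and 45170.5 and 41192 CPM in lymph node and was not called (adjusted p 0.18). Neat1, also nuclear, was higher in lymph node, at 69.8 and 69.4 against 99.99 and 107 CPM, but was not called without the cells with iNKT17 markers (adjusted p 0.0967). Neat1 was the only tested member of its list, nuclear noncoding and ribosomal-repeat transcripts, that was higher in lymph node. The ribosomal-repeat transcripts were 2.71-fold, 4.94-fold and 8.40-fold higher in liver. Small nucleolar RNA host genes of the list were higher in liver, by 1.30-fold and 1.62-fold, or were not called.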
